A study of Homo sapiens with 4 samples.

Results

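NRF2, the transcription factor encoded by NFE2L2, and 8 of its antioxidant target genes (NQO1, HMOX1, GCLM, GCLC, SRXN1, AKR1C1, AKR1C2 and AKR1B10) were followed in DU145 cells after knockdown of DCUN1D1. A probe set, the group of short probes that reports one transcript on the array, was taken when its annotation named exactly 1 gene and that gene was one of these 9. This gave 24 probe sets out of 40914 that name 1 gene, and 9 genes out of 19774. No filter on low signal was applied, so all 24 were tested.

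DU145 is an established, androgen-independent line from a human prostate carcinoma. The control arrays (n = 2) hold RNA of DU145 cells carrying a lentiviral shRNA against GFP, and the knockdown arrays (n = 2) hold RNA of DU145 cells carrying a lentiviral shRNA against DCUN1D1. The records call the cells stably transduced, grown for 16 h in DMEM before extraction (DMSO is listed too, without saying how it was used), and call the arrays biological duplicates. The methods instead describe RNA collected days after lentiviral infection, and which account holds for these arrays could not be settled. The methods speak of different shRNAs against DCUN1D1 without tying one to an array, and the sources used here do not say whether clones or pools were used. The question behind the comparison is what the loss of DCUN1D1 does to gene expression in these cells.

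NRF2 is a short-lived protein in unstressed cells. The adaptor KEAP1 holds it on a CUL3 ubiquitin ligase, which marks it for the proteasome, and oxidants or electrophiles that modify KEAP1 let NRF2 accumulate and switch on its targets through antioxidant response elements. Like other cullins, CUL3 needs NEDD8 for full activity, and DCUN1D1 helps to transfer NEDD8 onto cullins. The control is therefore exerted mostly on the protein, which these arrays do not measure. The target genes reduce quinones (NQO1), open the heme ring (HMOX1), make glutathione (GCLC and GCLM), restore oxidised peroxiredoxins (SRXN1) and reduce ketones and aldehydes (AKR1C1, AKR1C2 and AKR1B10).

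Upstream sequence was available in RefSeq's promoter table (GRCh38.p14) for 7 of the 9 genes, and was missing for HMOX1 and AKR1B10. The 250 bases before each start were searched on both strands for TGACNNNGC, the core of the antioxidant response element. It was found in 1 of the 8 promoters of these 7 genes (NFE2L2 has 2), that of GCLM, where it begins 34 bases before the start on the strand opposite to the gene. Over all 35116 promoters of the table, 10.9% held it, and over 81 promoters of other NRF2 pathway genes 24.7%. No match says only that these letters do not occur in this window. GCLM is shown because it holds the element, marked in capitals as the reverse complement of the search letters. AKR1C1 and AKR1C2 are shown as neighbouring genes with nearly identical upstream sequence. These bases lie before the start, and no transcript or probe sequence was compared. Each line gives the last 100 bases before the start in the direction of the gene.
GCLM (chr1:93909431-93909530, minus strand): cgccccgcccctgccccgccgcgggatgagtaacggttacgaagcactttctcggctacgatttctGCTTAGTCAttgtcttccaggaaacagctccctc
AKR1C1 (chr10:4963315-4963414, plus strand): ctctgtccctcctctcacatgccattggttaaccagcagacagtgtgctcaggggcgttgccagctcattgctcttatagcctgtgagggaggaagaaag
AKR1C2 (chr10:5003858-5003957, minus strand): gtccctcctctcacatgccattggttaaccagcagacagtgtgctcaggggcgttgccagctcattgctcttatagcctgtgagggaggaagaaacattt
Over the full 250 bases AKR1C1 and AKR1C2 were identical at 245 of 254 aligned positions (96.5%).

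The arrays differed in ways that touch every value below. Knockdown replicate 1 stood apart: at the 3′ end of GAPDH, its control probe set had a log2 signal of 10.82, against 4.68 to 5.09 in the other 3 arrays, and 1416 of the 40914 probe sets (3.46%) exceeded all other arrays by over 2 log2 in it. This occurred for 0, 5 and 0 probe sets in control replicate 1, control replicate 2 and knockdown replicate 2. The 3′ control of ACTB was also high in knockdown replicate 1, 8.30 against 3.95 to 4.35, while its 5′ control gave 9.21 against 8.06 to 8.79. For GAPDH, the middle control gave 11.07 in knockdown replicate 1, against 9.05 to 10.01 in the other arrays. Its 5′ control gave 9.67 against 6.42 to 7.14. In those other arrays the 3′ controls of GAPDH and ACTB thus lay under the 5′ controls of the same genes. Whether they lack 3′ signal or knockdown replicate 1 has an excess was not tested. Knockdown replicate 1 correlated with the other arrays at r = 0.66 to 0.75, and those correlated with each other at 0.83 to 0.92. The BioB control gave 8.22 and 10.49 with the GFP shRNA, against 6.37 and 6.22 with the DCUN1D1 shRNA. Most signals were low, and the nonspecific control whose probes hold 20 G or C bases and match no human transcript gave 2.97 and 3.30 with the GFP shRNA, against 2.48 and 2.51 with the DCUN1D1 shRNA. It is used below as a yardstick for background, although the base content of each member's own probes is not known here. Another control, with fewer G or C bases, gave 2.19 and 2.34 with the GFP shRNA, against 1.80 and 1.92 with the DCUN1D1 shRNA. SRXN1 exceeded this lower control in all 4 arrays, so a signal under the yardstick is not shown to be background. Of all 23 nonspecific controls, which differ in their number of G or C bases, 20 were lower in both knockdown arrays than in both control arrays. The median difference over the 23 was −0.29 log2. Epithelial markers expected in this line were also dim: of KRT8, KRT18, KRT19, EPCAM and CDH1, only KRT8 passed this yardstick in all 4 arrays, and KRT18 passed it in knockdown replicate 1 alone. The summed level of these 5 was 4.64 and 5.00 log2 in the controls and 7.78 and 4.62 after knockdown. No leukocyte or endothelial marker passed the yardstick in any array, whereas 1 of 5 fibroblast markers (COL1A1) passed it in all 4 and 0 to 2 of 3 luminal prostate markers did, depending on the array. The part of these differences in the results below was not tested. DCUN1D1 itself had 6 probe sets, 4 lower and 2 higher after knockdown, all between 0.90 and 2.55 and none past the fold bound. In the brightest of them DCUN1D1 gave 2.55 and 1.99 with the GFP shRNA, against 1.60 and 1.45 with the DCUN1D1 shRNA, all under the yardstick. By RT-PCR and Western blot, the paper reports DCUN1D1 mRNA and protein significantly reduced in DU145 cells after the DCUN1D1 shRNA.

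Each log2 fold change is the mean of the knockdown arrays minus that of the control arrays. A probe set counts as past the fold bound, in either direction, when the 90% confidence interval of its fold change has a lower limit over 1.2. The level and the cut-off are those of the study's own rule, and the interval comes from the standard error that limma moderates over all probe sets. By limma's adjusted p under 0.05, 0 of the 40914 probe sets were called (0%), and 939 were higher and 2146 lower at an unadjusted p under 0.05. The methods' t-test called 1 after the same adjustment. With 2 arrays per group the smallest p of an exact two-sided permutation test is 0.333.

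Of the 24 probe sets, 3 were higher past the fold bound: one each of NFE2L2, AKR1C1 and AKR1C2. Over all probe sets the share was 1.18%. None of the 24 was lower past it, where the share over all probe sets was 2.38%. Their adjusted p from limma ranged from 0.625 to 0.997, and 1 of the 24, an AKR1C1 probe set, had an unadjusted p under 0.05. In the plot of signal by array, the 2 control arrays of every gene lay under the nonspecific yardstick, and what separated the groups was mainly 1 array. In control replicates 1 and 2, 0 of the 24 probe sets exceeded the nonspecific yardstick, against 10 (41.7%) in knockdown replicate 1 and 2 (8.33%) in knockdown replicate 2. Over all probe sets these shares were 8.97% and 6.07% in the control arrays, against 18.7% and 14.5% in knockdown replicates 1 and 2. With either control array left out none of the 3 was past the bound, although the log2 fold changes stayed about as large (1.83 and 1.56 for NFE2L2, 1.41 and 1.49 for AKR1C1, 2.11 and 1.98 for AKR1C2). Without knockdown replicate 1 only AKR1C2 was past it. The fold changes are thus taken against control signals under the nonspecific yardstick.

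**Figure D1:**
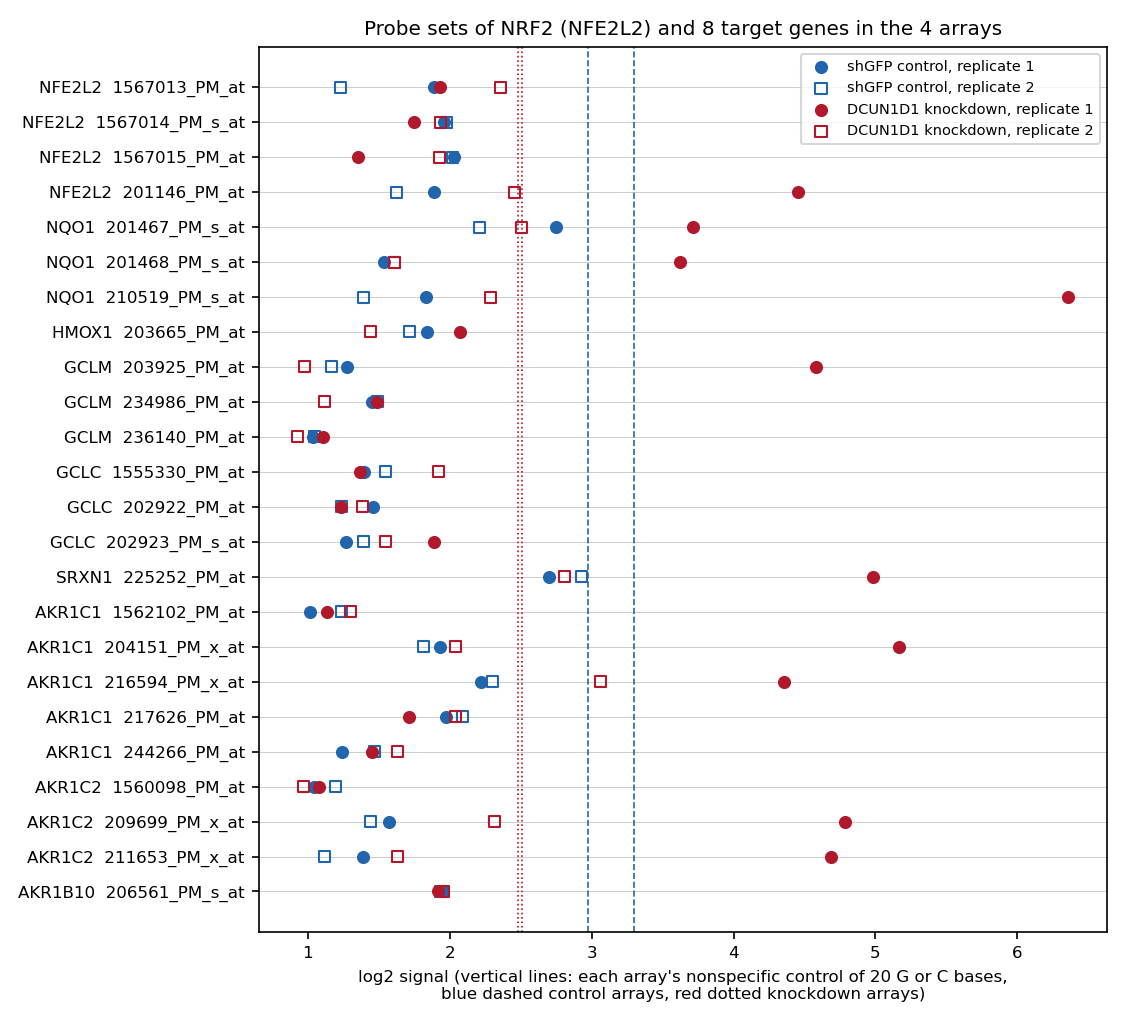
Log2 signal (horizontal axis) of the 24 probe sets of NFE2L2 and 8 targets (rows) in each of the 4 arrays, with control arrays in blue, knockdown arrays in red, circles for replicate 1 and squares for replicate 2; vertical lines mark each array's nonspecific control of 20 G or C bases. Knockdown replicate 1 lies alone to the right for the SRXN1 probe set and for some, not all, probe sets of NFE2L2, NQO1, GCLM, AKR1C1 and AKR1C2. It reaches 6.36 for NQO1, while all control values stay at or below 2.93.

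NFE2L2 was measured by 4 probe sets that did not move together. In 201146_PM_at, NFE2L2 gave 1.89 and 1.63 with the GFP shRNA (replicates 1 and 2, in this order throughout), against 4.45 and 2.45 with the DCUN1D1 shRNA. Both knockdown arrays lay above both control arrays, and knockdown replicate 1 was far the higher of its pair. The control mean was 1.76 ± 0.19 (SD, n = 2) and the knockdown mean 3.45 ± 1.41 (SD, n = 2), a log2 fold change of 1.69 ± 0.69 (SE, n = 2 per group; limma, adjusted p = 0.625). The lower limit of its fold change was 1.23, just past the bound. Knockdown replicate 2 lay under its own nonspecific yardstick, so that this NFE2L2 probe set passed the yardstick only in knockdown replicate 1. Its 2.45 in knockdown replicate 2 exceeded that array's control with fewer G or C bases, 1.92. Without knockdown replicate 1 its log2 fold change was 0.69 and no longer past the bound.

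In a second NFE2L2 probe set, 1567013_PM_at, signals were 1.89 and 1.23 with the GFP shRNA, against 1.93 and 2.36 with the DCUN1D1 shRNA, so that knockdown replicate 2 was the highest. The other two NFE2L2 probe sets went the opposite way, with log2 fold changes of −0.13 and −0.38, and both had their lowest value in knockdown replicate 1. As the mean over its 4 probe sets, NFE2L2 had a log2 fold change of 0.44 ± 0.20 (SE, n = 2 per group; limma, adjusted p = 0.622), not past the bound.

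NQO1, which reduces quinones by a pair of electrons and is among the most used readouts of NRF2, had 3 probe sets, all with positive log2 fold changes and none past the bound. In 210519_PM_s_at, NQO1 gave 1.83 and 1.39 with the GFP shRNA, against 6.36 and 2.29 with the DCUN1D1 shRNA. This was the largest log2 fold change of the 24, at 2.71 ± 1.33 (SE, n = 2 per group; limma, adjusted p = 0.625), and its lower limit was 1.03. Both knockdown arrays were above both control arrays, but replicate 1 exceeded replicate 2 by 4.07. In 201468_PM_s_at, NQO1 gave 1.54 and 1.61 with the GFP shRNA, against 3.62 and 1.61 with the DCUN1D1 shRNA, and in 201467_PM_s_at it gave 2.75 and 2.21 with the GFP shRNA, against 3.72 and 2.50 with the DCUN1D1 shRNA. In both of these knockdown replicate 2 lay within or beside the controls. Without knockdown replicate 1 the 3 NQO1 probe sets had log2 fold changes of 0.68, 0.03 and 0.02.

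HMOX1, which encodes the inducible heme oxygenase, showed no such signal in any array. Its probe set gave 1.84 and 1.72 with the GFP shRNA, against 2.07 and 1.44 with the DCUN1D1 shRNA, so that the knockdown arrays enclosed the controls. All of these lay under the nonspecific yardstick, where a change of the gene could go unseen. The log2 fold change of HMOX1 was −0.02, with a 90% interval from −0.55 to 0.51.

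The subunits of glutamate-cysteine ligase, the rate-limiting enzyme of glutathione synthesis, were measured by 3 probe sets each, and 1 of GCLM was high in a single array. GCLM, the modifier subunit, gave 1.28 and 1.16 with the GFP shRNA, against 4.58 and 0.98 with the DCUN1D1 shRNA in 203925_PM_at. Its high value was thus in knockdown replicate 1 alone, and knockdown replicate 2 was the lowest of the 4 arrays. The log2 fold change of 1.56 ± 1.15 (SE, n = 2 per group; limma, adjusted p = 0.640) became −0.25 without knockdown replicate 1. The other two GCLM probe sets lay between 0.93 and 1.49 in every array.

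GCLC, the catalytic subunit, lay between 1.23 and 1.92 in all 4 arrays and all 3 probe sets. In 202923_PM_s_at, GCLC gave 1.27 and 1.39 with the GFP shRNA, against 1.89 and 1.55 with the DCUN1D1 shRNA. These groups did not overlap, and the log2 fold change of 0.39 ± 0.18 (SE, n = 2 per group; limma, adjusted p = 0.625) was not past the bound. The other two GCLC probe sets overlapped between the groups and had log2 fold changes of 0.17 and −0.04.

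SRXN1, sulfiredoxin, which restores over-oxidised peroxiredoxins, had the brightest control signals among the 24 probe sets in control replicate 2. SRXN1 gave 2.70 and 2.93 with the GFP shRNA, against 4.98 and 2.81 with the DCUN1D1 shRNA. Knockdown replicate 2 fell between the controls, and without knockdown replicate 1 nothing was left of the log2 fold change of 1.08 ± 0.79 (SE, n = 2 per group; limma, adjusted p = 0.638), which became −0.0027.

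AKR1C1 and AKR1C2 encode hydroxysteroid dehydrogenases of the aldo-keto reductase family that also clear lipid aldehydes. All 4 of their probe sets with the suffix x_at, which the manufacturer gives to sets whose probes may also bind other transcripts, were high in knockdown replicate 1. Given this suffix, the signal of these 4 cannot be assigned to AKR1C1, AKR1C2 or another gene with certainty. Their probe sequences were not compared. In 216594_PM_x_at, AKR1C1 gave 2.22 and 2.30 with the GFP shRNA, against 4.36 and 3.06 with the DCUN1D1 shRNA. Here both knockdown arrays exceeded both the control arrays and their own nonspecific yardstick, the only one of the 3 called probe sets for which this held. The control and knockdown means were 2.26 ± 0.06 (SD, n = 2) and 3.71 ± 0.92 (SD, n = 2), a log2 fold change of 1.45 ± 0.53 (SE, n = 2 per group; limma, adjusted p = 0.625) with a lower limit of 1.30. Knockdown replicate 2 was under the mean yardstick of the control arrays, 3.13. In 204151_PM_x_at, AKR1C1 gave 1.93 and 1.81 with the GFP shRNA, against 5.17 and 2.04 with the DCUN1D1 shRNA, with a wider interval that reached below 0.

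In 209699_PM_x_at, AKR1C2 gave 1.57 and 1.44 with the GFP shRNA, against 4.79 and 2.31 with the DCUN1D1 shRNA. The control and knockdown means were 1.51 ± 0.09 (SD, n = 2) and 3.55 ± 1.75 (SD, n = 2), a log2 fold change of 2.04 ± 0.82 (SE, n = 2 per group; limma, adjusted p = 0.625) with a lower limit of 1.31. Knockdown replicate 2 lay under its own yardstick. Of the 24, it was the one probe set past the bound without knockdown replicate 1, with a log2 fold change of 0.81. In 211653_PM_x_at, AKR1C2 gave 1.39 and 1.11 with the GFP shRNA, against 4.69 and 1.63 with the DCUN1D1 shRNA, again without overlap and with most of the difference in replicate 1.

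The remaining AKR1C1 and AKR1C2 probe sets carry no x_at suffix and gave no comparable signal. The 3 of AKR1C1 had log2 fold changes of 0.09, −0.15 and 0.19, and the 1 of AKR1C2 had −0.09. As means over all their probe sets, AKR1C1 had a log2 fold change of 0.66 and AKR1C2 of 1.28, and neither was past the bound. AKR1B10, a reductase of retinal and lipid aldehydes, gave 1.95 and 1.94 with the GFP shRNA, against 1.92 and 1.96 with the DCUN1D1 shRNA. Every one of these values lay under the nonspecific yardstick, where a change of the gene could go unseen. Its log2 fold change was −0.01, with a 90% interval from −0.39 to 0.38.

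**Figure D2:**
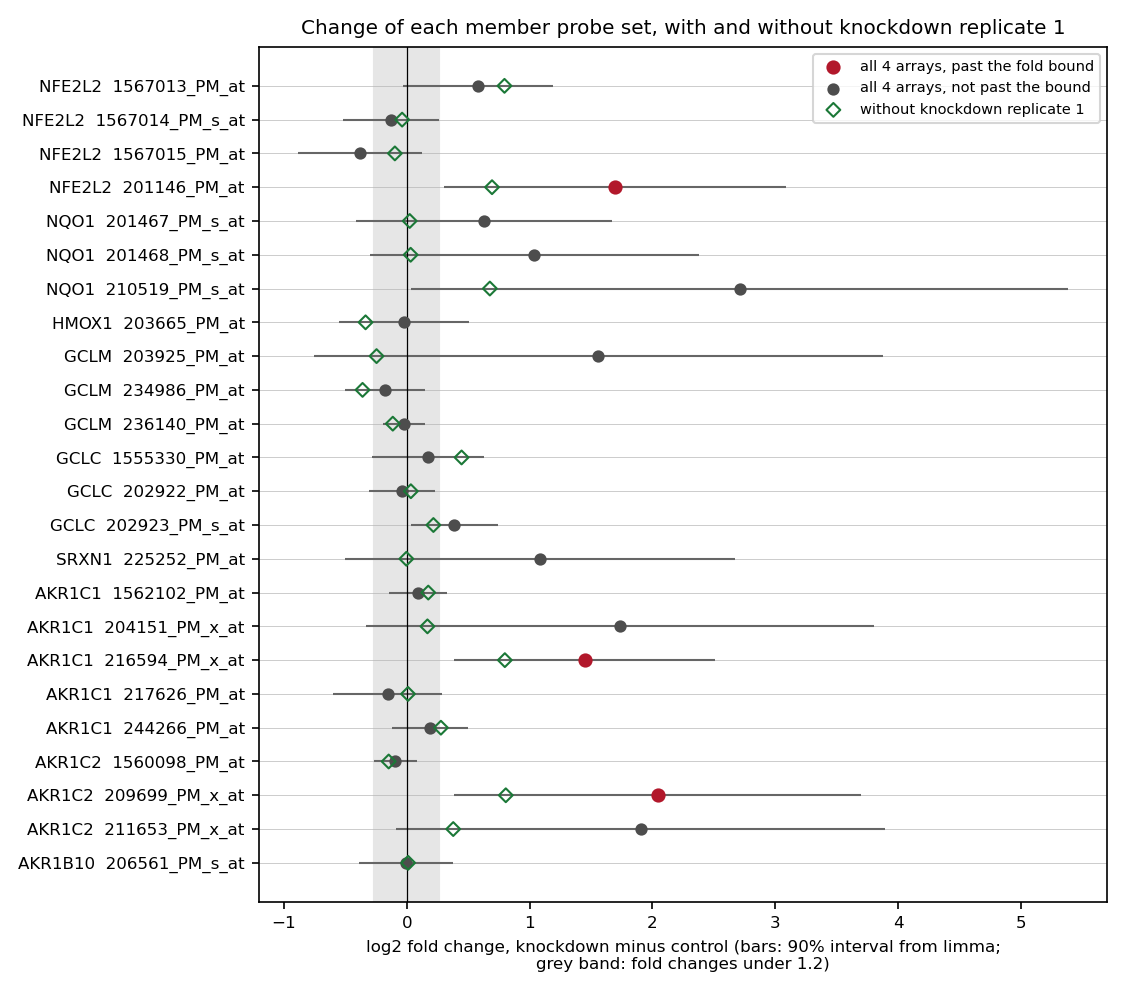
Log2 fold change, knockdown minus control (horizontal axis), of the 24 probe sets (rows) with the 90% interval from limma as bars; red points are the 3 past the fold bound, grey points the others, and green diamonds the values without knockdown replicate 1; the grey band spans fold changes under 1.2. With all arrays the values reach 2.71 (NQO1); without knockdown replicate 1 they lie between −0.36 and 0.81.

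Counted together, 8 of the 24 probe sets had both knockdown arrays above both control arrays, against 17.9% of all probe sets, and 2 had both below, against 25.0% of all probe sets. The median log2 fold change was 0.29 over the 24 probe sets and −0.01 over all 40914. Taken array by array, the median difference from the control mean was 0.33 in knockdown replicate 1 and 0.03 in knockdown replicate 2, against −0.07 and 0.01 over all probe sets. Of the 24, 7 (29.2%) exceeded all other arrays by over 2 log2 in knockdown replicate 1, compared with 3.46% of all probe sets. These 7 belong to NQO1, GCLM, SRXN1, AKR1C1 and AKR1C2, and the NFE2L2 probe set past the bound missed this cut narrowly. In knockdown replicate 2 the same 7 probe sets differed from the control mean by −0.25 to 0.81. The GAPDH and ACTB controls at the 3′ end moved in the same array, and their part in these values was not tested.

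The kind of probe set went with this difference. Among the members it was seen in 3 of 4 x_at sets, 2 of 6 s_at sets, whose probes are shared by several transcripts that may be of different genes, and 2 of 14 plain at sets. Over all probe sets the shares were 7.23%, 6.31% and 2.08%. The 4 x_at sets among the members are all of AKR1C1 and AKR1C2, so they may count the same signal more than once.

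**Figure D3:**
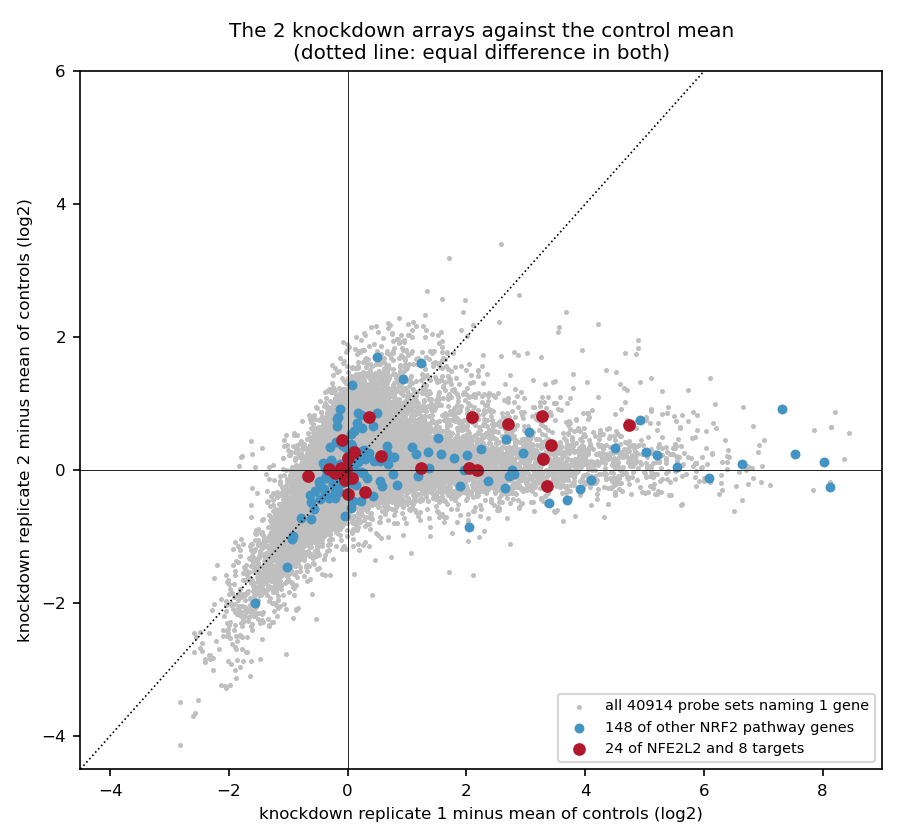
Difference of knockdown replicate 1 (horizontal axis) and of knockdown replicate 2 (vertical axis) from the mean of the 2 control arrays, in log2, for all 40914 probe sets (grey), 148 of other NRF2 pathway genes (blue) and the 24 of NFE2L2 and its targets (red); the dotted line marks equal differences. The red points spread to 4.75 along the horizontal axis but stay between −0.36 and 0.81 on the vertical axis.

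The genes that hold NRF2 in check were read beside it. KEAP1, the adaptor, gave 1.74 and 1.93 with the GFP shRNA, against 1.89 and 1.26 with the DCUN1D1 shRNA, with a log2 fold change of −0.26 that was not past the bound. CUL3, the scaffold, was one of the few bright genes of the pathway. In 201371_PM_s_at, CUL3 gave 9.11 and 8.98 with the GFP shRNA, against 9.30 and 9.27 with the DCUN1D1 shRNA. Its log2 fold change was 0.24 ± 0.29 (SE, n = 2 per group; limma, adjusted p = 0.766), with a 90% interval from −0.34 to 0.82. The other two CUL3 probe sets had log2 fold changes of 0.54 and −0.23 at signals under 2.

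Among 9 genes of NRF2 ubiquitination and degradation, 1 was higher and 1 lower past the bound. GSK3B, a kinase that marks NRF2 for the ligase adaptor BTRC, gave 2.63 and 1.44 with the GFP shRNA, against 3.27 and 3.64 with the DCUN1D1 shRNA in 209945_PM_s_at. The log2 fold change was 1.42 ± 0.50 (SE, n = 2 per group; limma, adjusted p = 0.625), and 0.82 without control replicate 2. GSK3B was not past the bound without that array, nor without knockdown replicate 2. Its other 4 probe sets were not past the bound, among them the brightest, 226191_PM_at, at 0.68 with a 90% interval from −0.54 to 1.90, and 2 of the 4 were negative. CUL1, the scaffold of the BTRC ligase, gave 2.93 and 3.27 with the GFP shRNA, against 2.08 and 1.64 with the DCUN1D1 shRNA in 238509_PM_at, under the nonspecific yardstick in every array. The difference was −1.24 ± 0.31 (SE, n = 2 per group; limma, adjusted p = 0.625), and −1.07, not past the bound, without control replicate 2. A brighter CUL1 probe set, 207614_PM_s_at, gave 4.92 and 4.50 with the GFP shRNA, against 4.54 and 5.51 with the DCUN1D1 shRNA.

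Over 8 lists of the pathway, 60 of 64 genes were measured, by 148 probe sets. Of these genes 1 had a probe set higher and 3 had one lower past the bound, or 0.676% and 2.03% of the probe sets, no more than the 1.18% and 2.38% of all probe sets. The lower genes, apart from CUL1, were SLC48A1 and ALDH3A1. SLC48A1, a heme transporter, gave 4.32 and 4.64 with the GFP shRNA, against 2.93 and 2.48 with the DCUN1D1 shRNA in 218416_PM_s_at. Its log2 fold change was −1.78 ± 0.46 (SE, n = 2 per group; limma, adjusted p = 0.625), past the bound also with any 1 array left out. Its other two probe sets had log2 fold changes of −0.25 and −0.34. ALDH3A1, an aldehyde dehydrogenase, gave 2.90 and 2.63 with the GFP shRNA, against 1.83 and 1.73 with the DCUN1D1 shRNA, all under the yardstick, and its difference of −0.99 became −0.85, not past the bound, without control replicate 1. None of 9 measured partners and competitors of NRF2, 10 genes of glutathione synthesis and use, 7 of thioredoxin, peroxide and superoxide enzymes, 5 of NADPH supply or 5 of conjugate export was past the bound in either direction.

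Knockdown replicate 1 stood out in these lists too. In 17 of the 60 genes, by 25 of the 148 probe sets (16.9%, against 3.46% of all probe sets), it lay more than 2 log2 above each other array. The thioredoxin, peroxide and superoxide list held 5 of these 17 genes: TXN, TXNRD1, PRDX6, SOD1 and SOD2, named after their values were seen. TXN, thioredoxin, a small protein that reduces disulfides, gave 1.85 and 1.82 with the GFP shRNA, against 8.48 and 1.93 with the DCUN1D1 shRNA in 208864_PM_s_at. The list's median difference from the control mean was 2.31 in knockdown replicate 1 and −0.0001 in knockdown replicate 2. FTL, the light chain of the iron store ferritin and also named after its values were seen, gave 2.36 and 2.24 with the GFP shRNA, against 10.42 and 2.05 with the DCUN1D1 shRNA in 213187_PM_x_at. Conjugate export, with ABCC1, ABCC2, ABCC3, ABCC4 and ABCG2, had none.

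**Figure D4:**
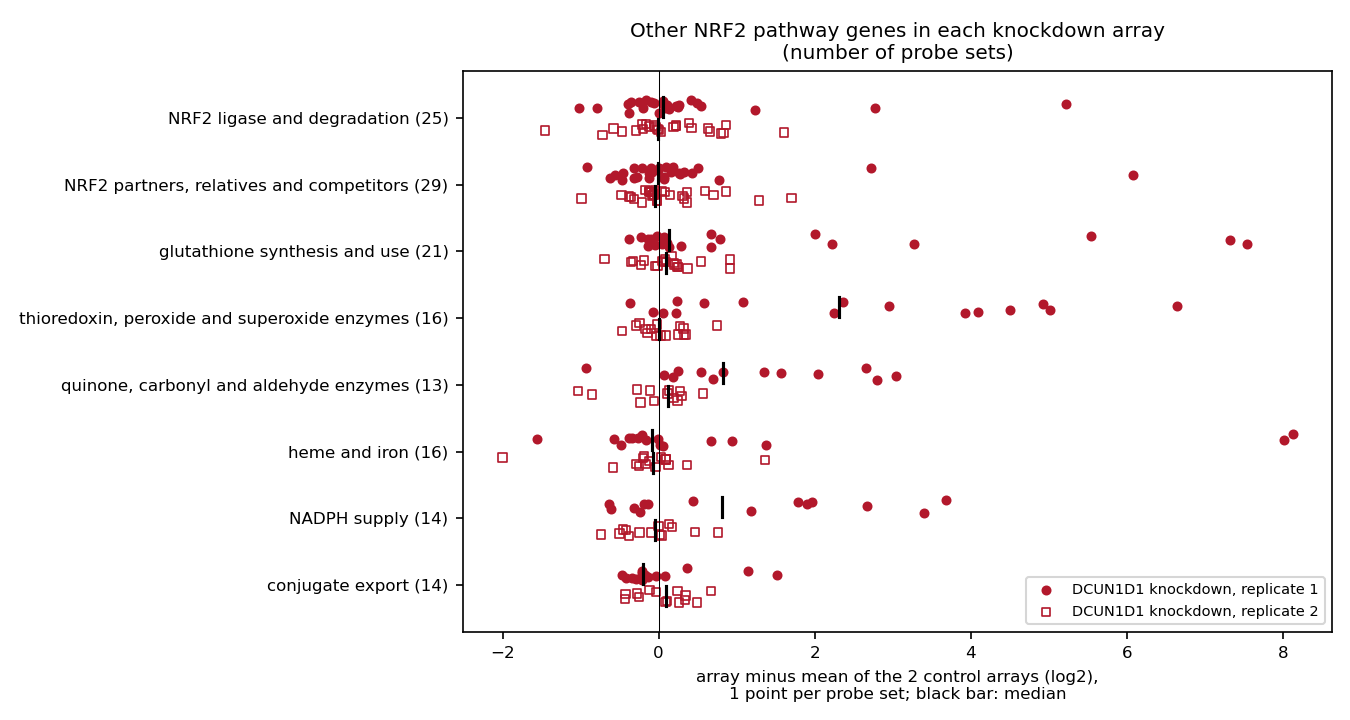
Difference from the mean of the 2 control arrays (horizontal axis, log2) of each probe set of 8 lists of NRF2 pathway genes (rows, with the number of probe sets), for knockdown replicate 1 (filled circles) and knockdown replicate 2 (open squares); black bars are medians. In the thioredoxin, peroxide and superoxide list the median is 2.31 in replicate 1 and −0.0001 in replicate 2, and FTL reaches 8.12 in the heme and iron list.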

How the data were processed

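Affymetrix arrays of 1 channel were hybridised with RNA from DU145 cells, 2 arrays per group and 4 in all. The authors deposited log2 signals, one per probe set and array, not pooled. Per the labels, Affymetrix Expression Console was used, whereas the methods name dChip with smoothing spline normalization; which one made the table could not be settled. All values lie above 0, so genes were not centred. Genes were named by the platform annotation: 40914 probe sets name 1 gene, 864 several and 12835 none, and 102 are controls. All 40914 were fitted with limma 3.58.1 in R 4.3.3 (variance trend, Benjamini–Hochberg adjustment over all of them). The members, the gene lists and the tests were chosen with earlier results of these data known. Every member probe set was named, as were KEAP1, CUL3 and DCUN1D1 and, per list, up to 3 genes each way past the fold bound without overlap. An array has no read depth, and precision rests on 2 arrays per group and on signal over background. Because nothing says how separate the cultures were, p-values measure the spread between these arrays. Marker lists were epithelial (1 of 5 genes lower past the bound, KRT8), luminal prostate (0 of 3 measured), fibroblast (1 of 5 lower, COL1A1), leukocyte (0 of 4 measured) and endothelial (0 of 3). Over all probe sets 2.38% were lower past the bound. The KRT8 call rests on 216821_PM_at (−1.89), while the brighter 209008_PM_x_at gave 0.02. The COL1A1 call rests on 202312_PM_s_at (−1.85), while the brighter 217430_PM_x_at gave 0.41. The fit was tested on simulated data. The alternatives were other normalizations, a signal filter, gene-level summaries, other variance models, the methods' t-test, a 95% bound, a replicate block and leaving out each array.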

Additional observations from a re-analysis of the deposited data

How the results depend on the processing

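With 3 member probe sets higher past the fold bound in the reported fit, the count was 6 after centring on the nonspecific controls, 1 with the signal filter, 1 without a variance trend, and 0 with probe sets averaged per gene, the methods' t-test or a lower 95% bound. Leaving out 1 array gave 0 to 10, with 0 without either control array, 1 without knockdown replicate 1 and 10 without knockdown replicate 2. The lone array of a group is then assumed to vary like the other group. The count of lower member probe sets was 0 in every setting run. Over all probe sets the reported counts of 481 higher and 974 lower became 2590 and 322 after centring on the nonspecific controls, 172 and 412 with the mean over probe sets, 177 and 501 with a lower 95% bound, 297 higher with the methods' t-test and 311 higher with the brightest probe set of each gene. Leaving out 1 array gave 47 to 4008 higher and 503 to 1374 lower. That centring, which moves the median of all probe sets to 0.28, thus turns the split of calls from mostly lower to mostly higher. The adjusted p called 1 probe set with the methods' t-test and 0 to 2602 with 1 array left out. Pathway genes with a higher probe set numbered 5 with quantile normalization, 18 after centring on the nonspecific controls, 0 with the brightest or the averaged probe sets, the t-test or the 95% bound, 2 with the robust variance model, 3 with the replicate block and 0 to 28 with 1 array left out. Those with a lower one numbered 5 without a variance trend and with the t-test.

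Centring on the nonspecific controls turned the sign of 8 negative member values, none of them past the bound in either fit: 0.20 for AKR1C2 (1560098_PM_at), 0.16 for NFE2L2 (1567014_PM_s_at), 0.25 for GCLC (202922_PM_at), 0.27 for HMOX1, 0.29 for AKR1B10, 0.14 for AKR1C1 (217626_PM_at), and 0.12 and 0.27 for GCLM (234986_PM_at and 236140_PM_at). Quantile normalization turned the last to 0.0135. With 1 array left out, signs turned within −0.0182 to 0.20 for AKR1C1 (1562102_PM_at), −0.15 to 0.0696 for GCLC (202922_PM_at), −0.10 to 0.45 for GCLC (1555330_PM_at), −0.33 to 0.29 for HMOX1, −0.0239 to 0.0119 for AKR1B10, −0.32 to 0.0108 for AKR1C1 (217626_PM_at), −0.25 to 3.36 for GCLM (203925_PM_at), −0.36 to 0.0099 for GCLM (234986_PM_at), −0.11 to 0.0677 for GCLM (236140_PM_at) and −0.0027 to 2.17 for SRXN1. The causes were not tested.

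The arrays share replicate numbers, but same-numbered arrays did not deviate together (r = −0.04 over 40914 probe sets). With 2 arrays per group this cannot settle whether they were prepared as pairs, and the reported fit used no pairing. With the replicate block 505 probe sets were higher and 669 lower, and 3 member probe sets were higher past the bound, with NQO1 (210519_PM_s_at) in and AKR1C1 (216594_PM_x_at) out.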
